A study of Mus musculus with 9 samples.

Results

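The genes of the mitochondrial ribosomal proteins named Mrpl (large subunit) or Mrps (small subunit) were followed across 9 RNA-seq libraries of glioblastoma cells and astrocytes. Members were all protein-coding genes whose symbol begins with Mrpl or Mrps and a digit, which gave 78 of the 49315 genes in the count table, 49 of the large and 29 of the small subunit. SB28, a mouse glioblastoma line that expresses GFP, had been grown for 2 days at a ratio of 1 to 1 with primary neonatal astrocytes of the strain C57BL6 (mito::mKate2), whose mitochondria carry the red fluorophore mKate2 fused to a localization peptide. Medium was DMEM F12 with 2% FBS, 5% N2 supplement and 20 ng/ml each of EGF and FGF, as the sample descriptions give it (the methods state other percentages of FBS and N2), and no further treatment was given to any group. After co-culture, cells were sorted into astrocytes, SB28 cells without mKate2 signal (mKate2- cells) and SB28 cells that had taken up mKate2-labelled mitochondria (mKate2+ cells), with 3 libraries per group from 3 separate co-cultures. SB28 is a single cell line, and the mKate2- and mKate2+ cells had shared a dish with the astrocytes, so no group stands for either cell type grown alone. The sort gates in the sample descriptions assign the CellTrace Violet stain to the tumor cells, whereas the methods apply it to the astrocytes, and the libraries were therefore taken by their names.

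As background, mitochondria make the few proteins encoded in their own genome, all of them core parts of the respiratory chain and ATP synthase, on a ribosome of their own. The small subunit holds the mRNA and the decoding centre, the large subunit forms the peptide bond, and all of the proteins of both are encoded in the nucleus and imported. Compared with its bacterial ancestor this ribosome has less rRNA and many added proteins, so that its members were classed into those counted as the counterpart of a bacterial protein and the rest, called specific to mitochondria here. Of the 49 large-subunit members 29 have a bacterial counterpart and 20 are specific to mitochondria, and of the 29 small-subunit members 16 have one and 13 do not. Subunit was taken from the symbol, although in the structure of the ribosome Mrps30 and Mrps18a sit in the large subunit and Mrps36 is now counted as a part of the 2-oxoglutarate dehydrogenase complex.

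Total counts were 24454561, 32707569 and 35135662 in astrocyte replicates 1, 2 and 3, 27187348, 35891589 and 29839630 in the mKate2- replicates, and 36051914, 39287841 and 34175016 in the mKate2+ replicates. This order of replicates is used for all values given below. Between 76568 and 166812 counts per library fell on the members. All 78 passed the filter on low counts in each comparison, and the fewest counts of any member in any library were 20, for Mrpl53. CPM is the usual scaling of counts to the total of the library. Levels of single members were ranked against each other only as counts per exonic length. These were scaled in the same way to the total of such values in the library and are called TPM-like here. Markers of cell types and mRNAs of the mitochondrial genome were ranked or set side by side as CPM, which does not allow for length. The same holds for sums over a subunit, their ratio and the share of Mrps6 in the small subunit, unless called TPM-like.

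The sorted groups were checked against markers of cell types. Astrocyte libraries held the glutamate transporter Slc1a3 at 195 ± 35.2 CPM (SD, n = 3) and the astrocyte enzyme Aldh1l1 at 141 ± 30.4 CPM, against means of at most 1.48 and 7.27 CPM in the SB28 groups. Gjb6 was at 0 in all 9 libraries, Gfap averaged 10.6 CPM in the astrocytes, and Gja1, Sox9 and Clu, also on the list of 12 astrocyte markers, were well expressed in SB28 cells, where Gja1 was the most abundant. The 12 markers summed to 836, 803 and 1494 CPM in the astrocytes, and to between 465 and 511 CPM in the 6 SB28 libraries. Astrocyte libraries also held Olig1 at 541, 241 and 304 CPM, the most abundant of 8 oligodendrocyte-lineage markers, which summed to 847, 444 and 508 CPM there and to at most 27.0 CPM in SB28 libraries, while Sox10, Mbp and Mog averaged below 1 CPM in every group. Of 7 microglia markers, Tmem119 had the highest CPM in every library, at 24.8 to 61.1, and Cx3cr1, C1qa and Trem2 were at or near 0. Neuron markers (5 genes, at most 25.5 CPM in sum) were led by Tubb3, with Rbfox3 at 0 throughout, 3 endothelial markers reached at most 6.09 CPM in sum, and 3 fibroblast markers were led by Col1a1 at 105 to 325 CPM with Dcn and Lum near 0. The part of any admixed cells in the differences described below was not tested.

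Summed over the 78 members, expression was 3131, 2766 and 2270 CPM in the astrocyte libraries, 3581, 3082 and 3415 CPM in the mKate2- libraries and 3343, 4246 and 3525 CPM in the mKate2+ libraries. The sum averaged 2722 ± 432 CPM in the astrocyte, 3359 ± 254 CPM in the mKate2- and 3705 ± 478 CPM in the mKate2+ libraries (SD, n = 3). All mKate2+ libraries lay above all astrocyte libraries, whereas mKate2- replicate 2 lay below astrocyte replicate 1, so that those groups overlapped. Large-subunit members summed to 1901, 1650 and 1378 CPM in the astrocytes, 2226, 1914 and 2122 in the mKate2- replicates and 2068, 2697 and 2186 in the mKate2+ replicates. Small-subunit members summed to 1230, 1116 and 892 CPM, 1355, 1168 and 1294 CPM, and 1275, 1549 and 1339 CPM in the same order of groups. For the large subunit no SB28 library fell below the highest astrocyte library, and for the small subunit mKate2- replicate 2 did. In bulk RNA, a larger share of counts from these genes cannot be told apart from less RNA of other genes per cell, nor fewer cells of a type from less RNA per cell. No p value was computed for a sum over members.

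**Figure D1:**
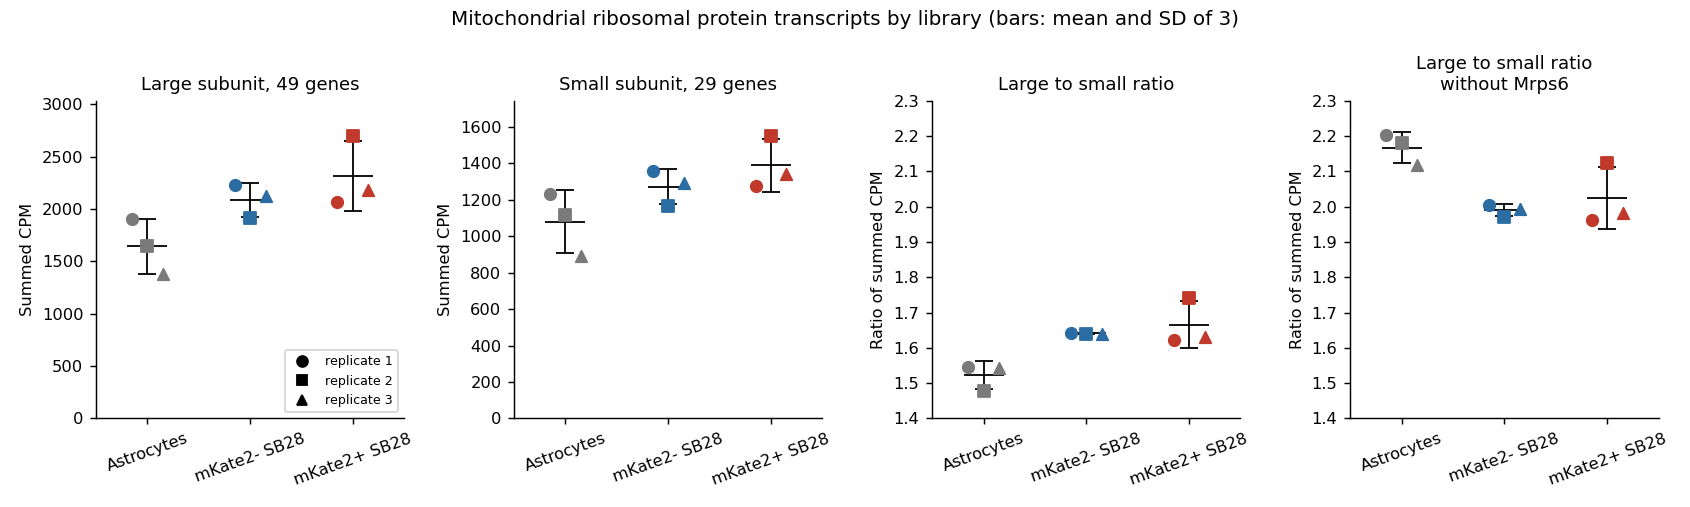
Summed CPM of the large-subunit and small-subunit genes, and the ratio of these sums with and without Mrps6, for each of the 9 libraries (y axes: CPM or ratio; points: libraries, with shape for the replicate; bars: mean and SD of 3). With Mrps6 the astrocyte libraries have the lowest ratios, at 1.48 to 1.55, and without it they have the highest mean, 2.17.

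The ratio of large-subunit to small-subunit counts differed between astrocytes and tumor cells, and this rested on Mrps6. With every member, the ratio of summed CPM was 1.55, 1.48 and 1.54 in astrocytes, 1.64, 1.64 and 1.64 in mKate2- cells and 1.62, 1.74 and 1.63 in mKate2+ cells. All 6 SB28 libraries lay above all 3 astrocyte libraries. Mrps6 alone made up 29.8%, 32.2% and 27.2% of the small-subunit counts in astrocytes, and between 16.8% and 18.1% in the SB28 libraries. The 95% Wilson intervals of these shares reached at most 0.517 percentage points to either side and cover counting error only. Without Mrps6 the order turned, with ratios of 2.20, 2.18 and 2.12 in astrocytes, 2.01, 1.97 and 1.99 in mKate2- cells and 1.96, 2.12 and 1.98 in mKate2+ cells. In this count every mKate2- library lay below every astrocyte library, and mKate2+ replicate 2 (2.124) stood just above astrocyte replicate 3 (2.119). On the TPM-like scale the ratio without Mrps6 was 2.42 ± 0.0244 in astrocytes, 2.37 ± 0.00781 in mKate2- cells and 2.36 ± 0.0132 in mKate2+ cells (SD, n = 3), and here the astrocyte libraries were the highest 3. Leaving out this gene was decided after its level had been seen.

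Mrps6, a small-subunit protein with a bacterial counterpart that binds near the platform of the subunit, was the most abundant member per length in every group. Its TPM-like level averaged 657 in astrocytes, 468 in mKate2- cells and 487 in mKate2+ cells. The next member in astrocytes was Mrpl34 at a TPM-like level of 148, and in the SB28 groups Mrpl12 at 231 and 241. As CPM, Mrps6 stood at 366, 360 and 242 in astrocytes, 245, 197 and 229 in mKate2- cells and 222, 279 and 237 in mKate2+ cells. Astrocyte replicates 1 and 2 were high, while astrocyte replicate 3 lay below mKate2- replicate 1, so the groups overlapped. Against astrocytes, mKate2- cells had a log2 fold change of -0.52 (SE 0.18, adjusted p = 0.0372, edgeR quasi-likelihood test with Benjamini-Hochberg adjustment over all genes). This was the only member that fell in either comparison with astrocytes, and the call was lost without astrocyte replicate 1, without astrocyte replicate 2, without any of the mKate2- replicates (adjusted p = 0.0635 to 0.13) and with a trend in GC content removed (adjusted p = 0.0533). In mKate2+ cells the log2 fold change was -0.32 (SE 0.20, adjusted p = 0.207), and it passed only without astrocyte replicate 3 (adjusted p = 0.0291) or with a gene-length trend removed (adjusted p = 0.0209). The gene lies at chr16:92058270-92112227 on the plus strand of GRCm38 and shares 159 exonic bases, 10.4% of its exonic length, with Slc5a3, a sodium-coupled inositol transporter gene on the same strand. Slc5a3 averaged 1616 ± 397 CPM in the astrocyte, 213 ± 24.9 CPM in the mKate2- and 196 ± 11.2 CPM in the mKate2+ libraries (SD, n = 3), a log2 fold change of -2.92 in mKate2- cells (adjusted p = 3.21e-05). Whether reads on the shared bases entered the Mrps6 counts or were lost from them was not tested.

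In mKate2- SB28 cells against astrocytes, 28 of the 78 members (35.9%) were higher at an adjusted p below 0.05, beside 29.3% of the 13356 genes tested, and 1 member was lower, beside 33.8%. The share called higher was thus close to that of all genes, and the share called lower was far smaller. The members' log2 fold changes ran from -0.52 to 1.43 with a median of 0.31, against a median of -0.04 over all genes tested. Above 0 lay 67 members (85.9%), beside 48.5% of all genes. Without astrocyte replicate 3 the median was 0.18. Groups did not overlap, with mKate2- cells higher, for 30 members, beside 33.8% of all genes, and with mKate2- cells lower for Mrpl10, beside 37.3%. By subunit, 16 of 49 large-subunit members (32.7%) and 12 of 29 small-subunit members (41.4%) rose, with median log2 fold changes of 0.28 and 0.34. Without astrocyte replicate 3 these medians were 0.17 and 0.19, and without astrocyte replicate 1 they were 0.44 and 0.47. Among the large-subunit members 12 of 29 with a bacterial counterpart and 4 of 20 specific to mitochondria rose, while among the small-subunit members the counts were 4 of 16 and 8 of 13. No test was made of these differences between classes.

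**Figure D2:**
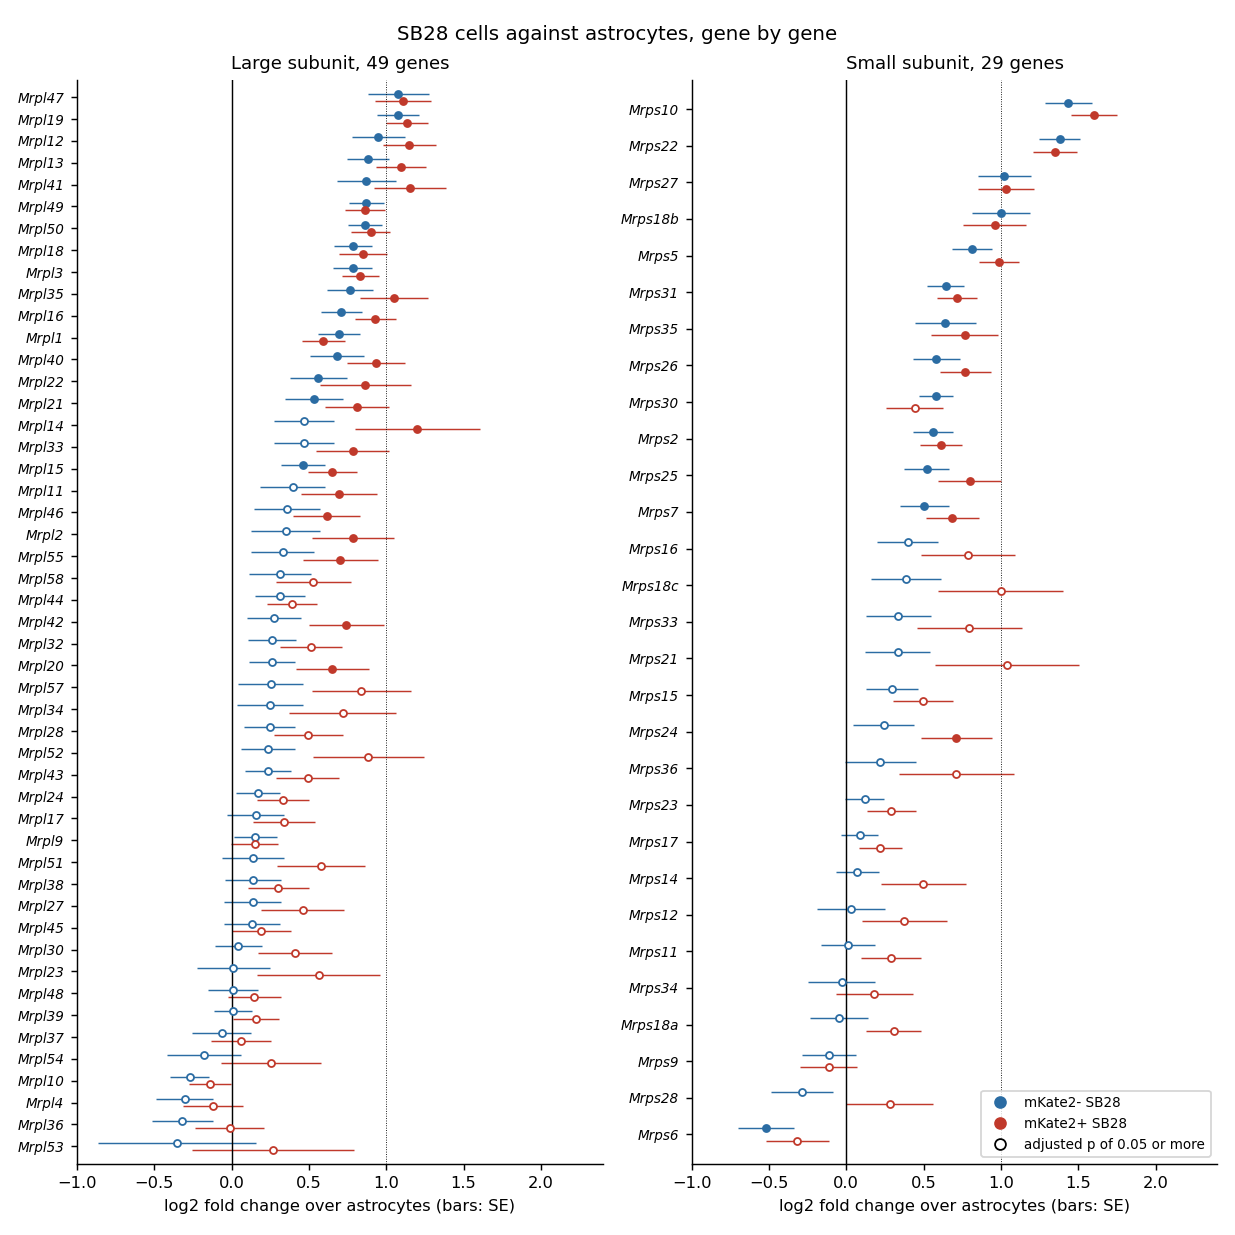
log2 fold change over astrocytes (x axis) of each large-subunit gene (left) and small-subunit gene (right) in mKate2- cells (blue) and mKate2+ cells (red), with bars of 1 SE, filled points for an adjusted p below 0.05 and a dotted line at 1. Most points lie to the right of 0, with medians of 0.31 in mKate2- and 0.67 in mKate2+ cells, and Mrps10 and Mrps22 stand farthest out.

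The pair of members farthest from astrocytes in either comparison, Mrps10 and Mrps22, belonged to the small subunit. Mrps10, which has a bacterial counterpart in the head of the subunit, was at 31.1, 39.3 and 28.6 CPM in the astrocytes, 100, 79.6 and 85.0 in the mKate2- replicates and 94.5, 97.2 and 92.5 in the mKate2+ replicates. No SB28 library fell below 79.6 CPM and no astrocyte library exceeded 39.3 CPM. Its log2 fold change was 1.43 in mKate2- cells (SE 0.15, adjusted p = 0.000144, edgeR) and 1.60 in mKate2+ cells (SE 0.15, adjusted p = 0.000108). Mrps22, a protein specific to the mitochondrial small subunit and a known mitochondrial disease gene, was at 16.0, 20.8 and 17.2 CPM in the astrocytes, 47.9, 44.3 and 46.6 in the mKate2- replicates and 45.0, 42.2 and 43.3 in the mKate2+ replicates. The SB28 groups sat close together, far above the astrocytes, with log2 fold changes of 1.38 (SE 0.13, adjusted p = 8.71e-05) and 1.35 (SE 0.14, adjusted p = 0.000186). No gene in the count table shares exonic bases with either. Mrps27, an RNA-binding pentatricopeptide repeat protein of the small subunit, was at 41.2, 31.2 and 28.4 CPM in astrocytes and 66.0, 62.2 and 74.8 CPM in mKate2- cells, without overlap (log2 fold change 1.02, SE 0.17, adjusted p = 0.00136). It shares 24.2% of its exonic length with an antisense transcript, 6430562O15Rik, that stayed at a mean of 1.69 CPM or less in every group.

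Promoters are shown for the pair of members that rose with the smallest adjusted p and for the member that fell, as RefSeq (GRCm38.p6) gives them from 250 bases before to 50 bases after the annotated start, on the strand of the gene. Capitals mark an ETS motif, CCGGAAGT, which Mrps22 holds 11 bases before its start. Mrps22 is on the minus strand at chr9:98601630-98601929, Mrps10 on the plus strand at chr17:47368947-47369246 and Mrps6 on the plus strand at chr16:92058086-92058385.
Mrps22: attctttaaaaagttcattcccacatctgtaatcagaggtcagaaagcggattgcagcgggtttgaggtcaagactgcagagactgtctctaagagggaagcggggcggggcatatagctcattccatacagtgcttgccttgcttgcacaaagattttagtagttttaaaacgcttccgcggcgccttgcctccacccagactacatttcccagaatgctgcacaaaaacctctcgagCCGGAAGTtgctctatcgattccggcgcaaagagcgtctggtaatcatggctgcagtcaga
Mrps10: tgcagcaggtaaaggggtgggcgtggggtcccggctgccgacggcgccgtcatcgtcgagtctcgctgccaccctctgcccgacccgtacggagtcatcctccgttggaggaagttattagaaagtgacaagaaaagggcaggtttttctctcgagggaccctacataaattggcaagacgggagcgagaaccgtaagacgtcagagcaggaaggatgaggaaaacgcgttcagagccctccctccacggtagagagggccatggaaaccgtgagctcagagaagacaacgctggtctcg
Mrps6: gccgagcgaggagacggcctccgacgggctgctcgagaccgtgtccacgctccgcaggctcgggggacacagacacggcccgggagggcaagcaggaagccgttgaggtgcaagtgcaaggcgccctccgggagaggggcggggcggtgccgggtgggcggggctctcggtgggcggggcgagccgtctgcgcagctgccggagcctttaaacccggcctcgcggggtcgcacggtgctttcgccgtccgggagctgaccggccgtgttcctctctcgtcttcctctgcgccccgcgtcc

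Promoters were at hand for 69 of the 78 members and for 27025 genes in all. Motifs of 3 factors that are known to act on nuclear genes of mitochondria were searched on both strands. NRF1 was found in 13 member promoters (18.8%), beside 4.78% of all promoters of the same length, ETS (CCGGAAGT) in 11 (15.9%), beside 4.0%, and YY1 in 5 (7.25%), beside 0.899%. By subunit, NRF1 was found in 23.3% of 43 large-subunit and 11.5% of 26 small-subunit promoters, and ETS in 16.3% and 15.4%. Of the 24 promoters of members that were higher in mKate2- cells, 8.33% held NRF1, 20.8% ETS and 8.33% YY1, and of the other 45 promoters 24.4%, 13.3% and 6.67%. None of the 3 motifs is in the Mrps10 or Mrps6 window shown above. The 27025 promoters were not limited to genes expressed here or matched to the members in base content. An excess over such genes thus cannot be read from these shares. A match or its absence describes these letters in this window only.

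In the large subunit, the stalk that recruits translation factors held members on both sides of the distribution. Mrpl12, the stalk protein, was at 66.8, 59.1 and 46.8 CPM in the astrocytes, 122, 92.2 and 117 in the mKate2- replicates and 109, 131 and 124 in the mKate2+ replicates. Its groups did not overlap with the astrocytes, and the log2 fold change was 0.95 (SE 0.17, adjusted p = 0.00193, edgeR) in mKate2- and 1.15 (SE 0.17, adjusted p = 0.000956) in mKate2+ cells. Mrpl10, on which the stalk is anchored, was at 73.6, 59.2 and 60.0 CPM in the astrocytes, 52.8, 53.5 and 52.2 in the mKate2- replicates and 55.1, 56.0 and 54.7 in the mKate2+ replicates. It was lower in all 6 SB28 libraries than in any astrocyte library but did not pass the test, with log2 fold changes of -0.27 (SE 0.13, adjusted p = 0.0966) and -0.14 (SE 0.14, adjusted p = 0.39), although the first passed with upper-quartile normalization (adjusted p = 0.0429) or at least 10 counts in every library (0.0428). Mrpl11, at the base of the stalk, had log2 fold changes of 0.39 (adjusted p = 0.141) and 0.69 (adjusted p = 0.0415), the second of which was lost without any single library other than astrocyte replicate 1 (adjusted p = 0.0515 to 0.134), with upper-quartile normalization (0.0757) and with at least 10 counts in every library (0.0621), while the first passed without astrocyte replicate 1 (adjusted p = 0.0131). Mrpl53, also placed at the stalk, was the lowest member per length at a TPM-like mean of 5.01, with 20 to 82 counts per library and no resolved difference (log2 fold change -0.35, SE 0.51, in mKate2- cells). It shares 88.0% of its exonic length with another gene on the same strand, Gm42688.

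Mrpl47, at the exit of the tunnel, was at 14.72, 11.95 and 10.59 CPM in the astrocytes, 29.35, 21.01 and 27.71 in the mKate2- replicates and 23.22, 26.6 and 26.39 in the mKate2+ replicates. Mrpl19, a large-subunit protein with a bacterial counterpart, was at 28.3, 30.3 and 23.9 CPM, 61.5, 52.1 and 59.1 CPM, and 58.8, 54.5 and 59.3 CPM in the same order. In neither did a tumor library reach down to an astrocyte library, and both had a log2 fold change of 1.08 in mKate2- cells (SE 0.20 and 0.14, adjusted p = 0.00193 and 0.000324). Mrpl47 shares exonic bases with Actl6a and Ndufb5, whose log2 fold changes in mKate2- cells were 1.36 and 0.15. Mrpl19 shares 36.0% of its exonic length with Gcfc2 on the opposite strand, whose log2 fold change was 0.83. Reads on shared bases cannot be told apart where strand was not used in counting, which the sources used here do not state. As uniquely assigned reads were counted, such reads may be missing from both genes. Mrpl49 and Mrpl50, both specific to mitochondria, rose by log2 fold changes of 0.87 (SE 0.12, adjusted p = 0.000405) and 0.86 (SE 0.11, adjusted p = 0.000344) in mKate2- cells, and by 0.86 and 0.90 in mKate2+ cells. Mrpl3, which reaches towards the peptidyl transferase centre, rose by 0.78 and 0.83, and Mrpl1, of the mobile stalk at the tRNA exit side, by 0.69 and 0.59 on the log2 scale, the last of which was lost with the GC trend removed (adjusted p = 0.0633). Mrpl13, Mrpl41 and Mrpl35 rose by 0.88, 0.87 and 0.77 in mKate2- cells and by 1.10, 1.15 and 1.05 in mKate2+ cells. Mrpl58, a peptidyl-tRNA hydrolase that has become part of the large subunit, had log2 fold changes of 0.31 (adjusted p = 0.207) and 0.53 (adjusted p = 0.0956). It passed in both comparisons only without astrocyte replicate 1 (adjusted p = 0.00896 and 0.0269).

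Among small-subunit members with a bacterial counterpart, Mrps5 rose by log2 fold changes of 0.81 (SE 0.13, adjusted p = 0.000959) and 0.99 (SE 0.13, adjusted p = 0.000478) in mKate2- and mKate2+ cells. Mrps7, an rRNA-binding protein of the head, was at 64.8, 51.2 and 46.5 CPM in the astrocytes, 83.8, 68.5 and 76.5 in the mKate2- replicates and 75.5, 90.9 and 81.4 in the mKate2+ replicates. All SB28 libraries were above the highest astrocyte library, with log2 fold changes of 0.50 (adjusted p = 0.0243) and 0.69 (adjusted p = 0.0103), and the call in mKate2- cells was lost without astrocyte replicate 2 (adjusted p = 0.0842), mKate2- replicate 1 (0.0933) or mKate2- replicate 3 (0.0607). Mrps12, a protein of the decoding centre, did not pass in either comparison (log2 fold change 0.03, SE 0.22, and 0.38, SE 0.27). With single libraries left out, its values ran from -0.13 to 0.30 and from 0.12 to 0.64. Mrps28 also passed in neither, at -0.29 (SE 0.20) and 0.28 (SE 0.28), although with the length trend removed it was lower in mKate2- cells (adjusted p = 0.0193). Without mKate2+ replicate 2 the value of Mrps28 in mKate2+ cells was -0.07. Of members specific to mitochondria, Mrps35 rose by 0.64 (adjusted p = 0.0232) and 0.77 (adjusted p = 0.0171). These calls were lost without astrocyte replicate 2 (adjusted p = 0.0625 and 0.0561), the first also without mKate2- replicate 1 (0.0759) or 3 (0.0571) and the second also without mKate2+ replicate 2 (0.0564), and both with the GC trend removed (0.105 and 0.0589). Mrps30, which the structure places in the large subunit, rose by 0.58 in mKate2- cells (SE 0.11, adjusted p = 0.00265), a call that was lost with the GC trend removed (0.26, adjusted p = 0.122), and stood at 0.44 in mKate2+ cells (SE 0.19, adjusted p = 0.0712), where it passed without mKate2+ replicate 2 (adjusted p = 0.00944), in a fit to all 9 libraries (0.028) and with the length trend removed (0.0384). Mrps36 gave 0.22 (SE 0.23) and 0.71 (SE 0.37) and did not pass, with lowest values of 0.04 without astrocyte replicate 3 and 0.17 without mKate2+ replicate 2.

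Mrps18a, Mrps18b and Mrps18c are related to each other and to a single bacterial protein, of which only Mrps18c was classed as the counterpart, and Mrps18a sits in the large subunit. Mrps18b was at 22.3, 16.6 and 14.7 CPM in the astrocytes, 34.9, 32.7 and 38.6 in the mKate2- replicates and 37.5, 26.7 and 35.1 in the mKate2+ replicates. No SB28 library overlapped the astrocytes, and the log2 fold changes were 1.00 (SE 0.19, adjusted p = 0.00233, edgeR) and 0.96 (SE 0.20, adjusted p = 0.00503). Mrps18a was at 35.4, 29.3 and 26.2 CPM, 34.0, 23.2 and 30.0 CPM, and 33.4, 39.9 and 33.3 CPM, with groups that overlapped and log2 fold changes of -0.05 (SE 0.19) and 0.31 (SE 0.18), the second of which passed with the GC trend removed (adjusted p = 0.0318). Mrps18c was at 10.5, 8.26 and 7.09 CPM, 13.5, 9.75 and 10.3 CPM, and 11.5, 26.4 and 10.4 CPM. Its high mKate2+ value came from replicate 2 alone, and neither log2 fold change passed (0.39, adjusted p = 0.171, and 1.00, adjusted p = 0.0635), although the second passed without mKate2+ replicate 1 (adjusted p = 0.0493) or 3 (0.0382), with DESeq2 (0.0311), with no filter on low counts (0.0255) and in a fit to all 9 libraries (0.034). Without mKate2+ replicate 2 it was 0.39. Mrps18b shares 30.5% of its exonic length with an antisense gene, Gm16279, that averaged 0.885 to 1.46 CPM per group.

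**Figure D3:**
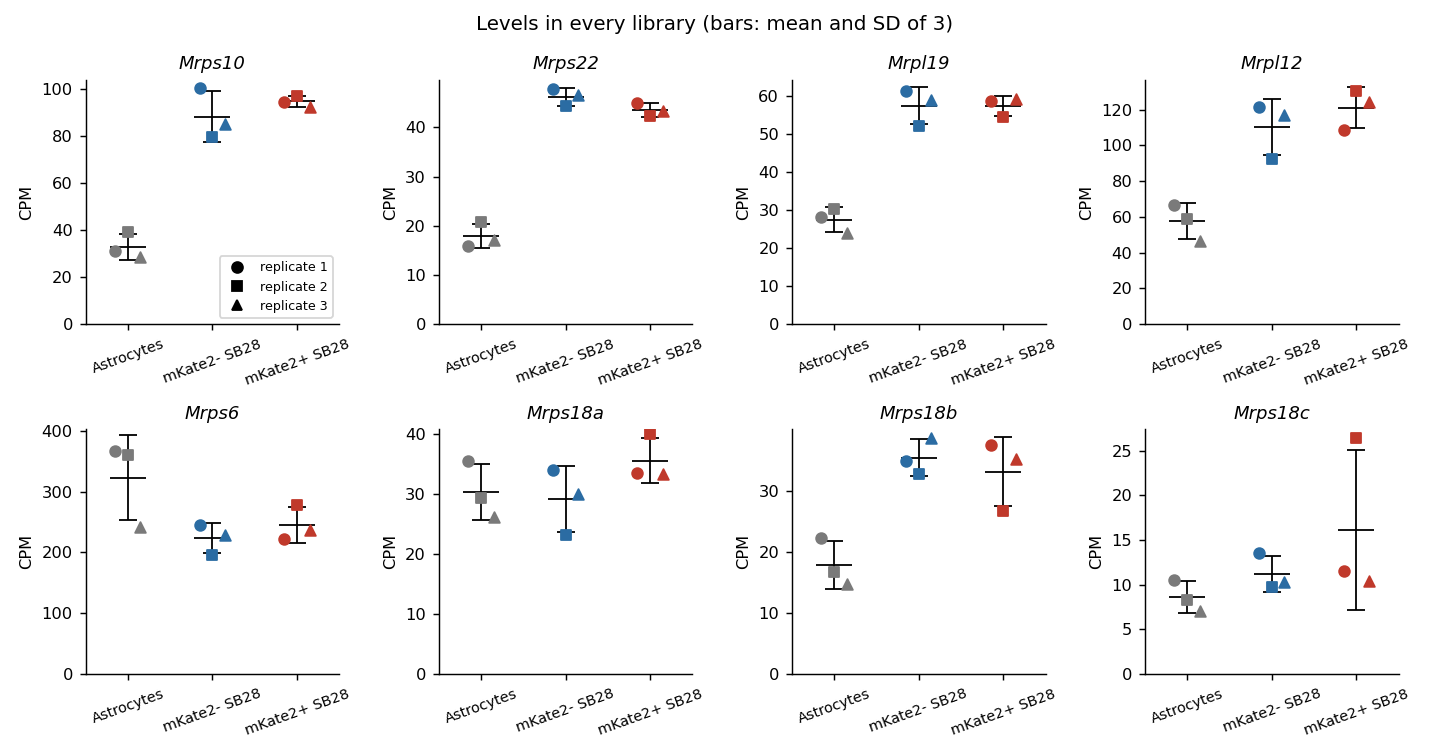
CPM (y axes) of Mrps10, Mrps22, Mrpl19, Mrpl12, Mrps6 and the 3 Mrps18 genes in each library (points: libraries, with shape for the replicate; bars: mean and SD of 3). Mrps10, Mrps22, Mrpl19, Mrpl12 and Mrps18b are higher in all 6 SB28 libraries than in any astrocyte library, Mrps6 and Mrps18a overlap between the groups, and mKate2+ replicate 2 stands alone at 26.4 CPM for Mrps18c.

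Past a log2 fold change of 1 with an adjusted p below 0.05 lay 5 members in mKate2- cells against astrocytes, namely Mrps10, Mrps22, Mrpl47, Mrpl19 and Mrps27, beside 11.5% of all genes above 1 and 22.4% below -1. Mrps18b lay just inside 1 at 0.998. The count was 2 without astrocyte replicate 3 and 8 without mKate2- replicate 2, where the shares of all genes are not given here. Few members therefore differed by a large factor.

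The same contrast was then made with mKate2+ cells, which share the astrocyte libraries with the comparison above, so the paired values are set side by side only. Here 36 members (46.2%) were higher, beside 28.0% of 13342 genes, and none was lower, beside 32.1%. At an unadjusted p below 0.05 there were also 0 lower members, beside 34.2%, and DESeq2 also called none lower. Without astrocyte replicate 3, Mrps6 was lower. The median log2 fold change was 0.67 (large subunit 0.65, small subunit 0.71), against -0.02 over all genes. It fell to 0.37 (0.36 and 0.39 by subunit) without mKate2+ replicate 2. In that fit 28 members were called higher, 27 of them among the 36, and the share of all genes called there is not given here. Above 0 lay 73 members (93.6%), beside 49.4%. Groups did not overlap, with mKate2+ cells higher, for 43 members, beside 29.4%, and with mKate2+ cells lower for Mrpl10, beside 37.7%. By subunit, 24 of 49 large-subunit and 12 of 29 small-subunit members rose.

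Past a log2 fold change of 1 in mKate2+ cells lay 10 members, beside 12.2% of all genes above 1 and 22.8% below -1, namely Mrps10, Mrps22, Mrpl14, Mrpl41, Mrpl12, Mrpl19, Mrpl47, Mrpl13, Mrpl35 and Mrps27. The count was 5 without astrocyte replicate 3 and 16 without mKate2+ replicate 1, where the shares of all genes are not given here. Mrpl14, a large-subunit protein at the interface with the small subunit, was at 26.4, 29.5 and 21.4 CPM in the astrocytes, 43.7, 29.1 and 33.2 in the mKate2- replicates and 35.6, 93.7 and 36.7 in the mKate2+ replicates. mKate2+ replicate 2 stood far above all other libraries, and the log2 fold change of 1.20 (SE 0.41, adjusted p = 0.0347) was 0.53 without it, which still passed. The call was lost when any single astrocyte library was left out (adjusted p = 0.0727 to 0.0864). For mKate2- cells the log2 fold change was 0.47 (adjusted p = 0.0642), and it passed without mKate2- replicate 2 (0.59, adjusted p = 0.0478), with no filter on low counts (adjusted p = 0.0332) and with a trend in GC content removed (adjusted p = 0.00756).

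Between mKate2+ and mKate2- SB28 cells, the comparison that asks what accompanied the uptake of astrocyte mitochondria, none of the 78 members passed an adjusted p of 0.05 in edgeR or DESeq2, and neither did any of the 11854 genes tested in edgeR (0.0%). At an unadjusted p below 0.05 stood 1 member, Mrps24, beside 0.759% of all genes higher and 1.27% lower, and DESeq2 gave 5 higher, beside 1.42% of all genes. This count was 27 with no filter on low counts, beside 3.23% of all genes, 18 without mKate2+ replicate 1, beside 4.44%, and 0 without mKate2+ replicate 2, beside 0.398%. Mrps24, a small-subunit protein at the mRNA entry, was at 36.1, 26.9 and 27.4 CPM in mKate2- cells and 34.2, 49.3 and 35.6 CPM in mKate2+ cells, with groups that overlapped (log2 fold change 0.46, SE 0.20, unadjusted p = 0.0491, adjusted p = 0.923, edgeR). Next in order were Mrpl2, an rRNA-binding core protein, at 0.42 (SE 0.18, unadjusted p = 0.0502 by edgeR) and Mrpl42 at 0.46 (SE 0.21, unadjusted p = 0.0622 by edgeR). Without mKate2+ replicate 2 the log2 fold changes of Mrps24, Mrpl2 and Mrpl42 were 0.22, 0.17 and 0.16. Against astrocytes these 3 had passed in mKate2+ cells (adjusted p = 0.0283, 0.0358 and 0.0313) and not in mKate2- cells, and each of those calls was lost without astrocyte replicate 2, astrocyte replicate 3 or mKate2+ replicate 2 (adjusted p = 0.0739 to 0.123). The calls were also lost with upper-quartile normalization (adjusted p = 0.0533 to 0.0626), that for Mrpl2 without mKate2+ replicate 3 (0.0552) or with at least 10 counts in every library (0.0521), and that for Mrpl42 with the GC trend removed (0.118). Without astrocyte replicate 1 Mrpl2 and Mrpl42 passed in mKate2- cells (adjusted p = 0.00678 and 0.0269), as Mrpl2 did with the GC trend removed (0.018). On the lower side, Mrps30 (-0.15, SE 0.15), Mrpl1 (-0.11, SE 0.10) and Mrps22 (-0.04, SE 0.08) came first and did not pass, and without mKate2+ replicate 2 Mrps30 stood at 0.01. Only Mrpl10 did not overlap, at 52.2 to 53.5 CPM in mKate2- and 54.7 to 56.0 CPM in mKate2+ cells, beside 2.16% of all genes higher in this way and 6.67% lower, and its log2 fold change was 0.12 (SE 0.08, unadjusted p = 0.194 by edgeR).

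Though none was called, 70 of the 78 members (89.7%) had a log2 fold change above 0 in mKate2+ against mKate2- cells, beside 50.9% of all genes, with a median of 0.21 (large subunit 0.24, small subunit 0.19) against 0.00 over all genes. With the length trend removed the large subunit stood at 0.13 and the small at 0.17, which turned their order. This shift came with mKate2+ replicate 2. It held the highest CPM of the 6 SB28 libraries for 57 members, beside 21.0% of all genes. Without mKate2+ replicate 2 the median was 0.03, against -0.004 over all genes tested. In that fit 53 members lay above 0, and the share of all genes above 0 is not given here. Members with a short exonic length stood highest in mKate2+ replicate 2. Mrps21, a small-subunit protein whose gene has 739 exonic bases, was at 19.9, 61.7 and 22.9 CPM in mKate2+ cells and 24.6, 19.8 and 23.7 CPM in mKate2- cells, and Mrpl34, a large-subunit protein with 607 exonic bases, was at 33.2, 67.4 and 34.5 CPM and 37.5, 33.8 and 31.7 CPM. In both, the SB28 libraries other than mKate2+ replicate 2 lay close together. Against astrocytes Mrps21 had a log2 fold change of 1.04 in mKate2+ cells (SE 0.46, adjusted p = 0.087), which passed without mKate2+ replicate 1, with DESeq2, with no filter on low counts or in a fit to all 9 libraries (adjusted p = 0.029 to 0.0467) and was 0.28 without mKate2+ replicate 2. Across the 78 members, Spearman's correlation of the log2 fold change with exonic length was -0.48, and -0.03 without mKate2+ replicate 2. These points share the same 6 libraries and are not independent. The median log2 fold change was 0.27 for the 39 shorter members and 0.17 for the 39 longer ones, which became 0.04 and 0.03. mKate2+ replicate 2 also had the lowest scaling factor of the 9 libraries (TMM, 0.920) and the lowest share of counts on mRNAs of the mitochondrial genome, 0.552% against 1.37% and 1.51% in the other mKate2+ libraries (95% Wilson intervals of at most 0.00576 percentage points to either side). On the TPM-like scale it was not the highest mKate2+ library, with members summing to 5228, 5026 and 5272. The part of that library's composition in the members' values was not tested.

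**Figure D4:**
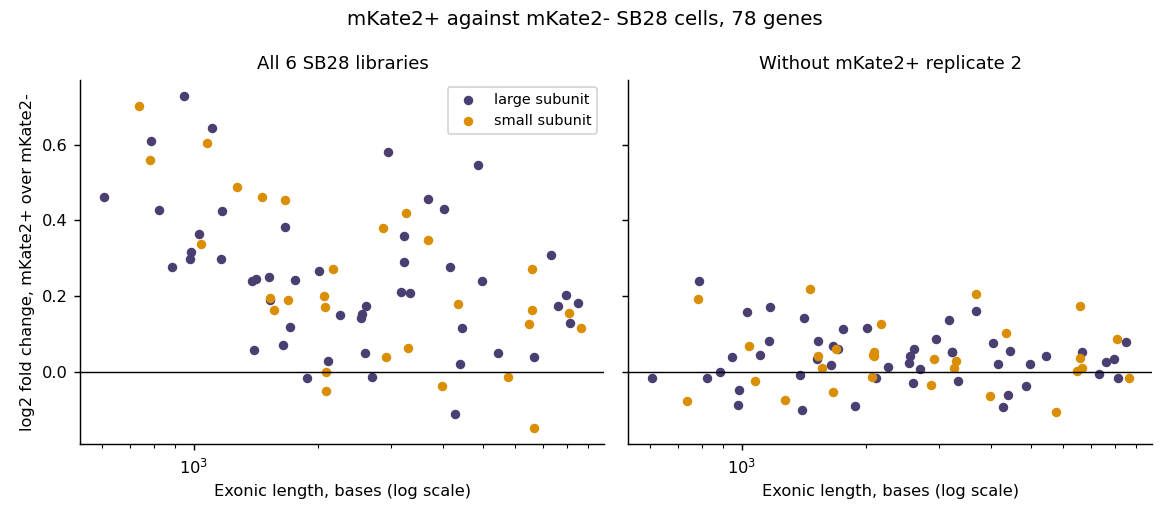
log2 fold change of mKate2+ over mKate2- SB28 cells (y axis) against exonic length in bases (x axis, log scale) for the 78 genes, with all 6 SB28 libraries (left) and without mKate2+ replicate 2 (right). On the left, 70 genes lie above 0 and the shorter ones reach highest (Spearman's correlation -0.48), whereas on the right the points scatter around a median of 0.03.

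Per length, member levels spanned a wide range. Over all 9 libraries the TPM-like mean was highest for Mrps6 (537), followed by Mrpl12 (197), Mrpl34 (182) and Mrpl38 (146). After Mrps6, the small subunit was led over all libraries by Mrps7 (107) and Mrps21 (103), while by group Mrps23 came second in astrocytes (82.9), Mrps7 in mKate2- cells (118) and Mrps21 in mKate2+ cells (133 ± 59.4, SD, n = 3). The median TPM-like level was 40.9 for large-subunit and 32.6 for small-subunit members, and the lowest of each were Mrpl53 (5.01) and Mrps35 (12.7). Exonic length joins all annotated exons of a gene, and that of Mrps35 was the longest of the members, at 8631 bases. Mrpl53 shares 88.0% of its exonic length with Gm42688. Both ranks thus depend on the annotation as well as on expression. Within groups, the median large-subunit member stood at 34.9 ± 2.95 in astrocytes, 44.9 ± 6.74 in mKate2- cells and 49.2 ± 2.29 in mKate2+ cells on the TPM-like scale, and the median small-subunit member at 25.8 ± 2.38, 34.9 ± 2.67 and 38.1 ± 1.62 (SD, n = 3). The astrocytes thus had the lowest median in either subunit. Mrpl38 itself had CPM of 137, 110 and 83.3 in astrocytes and 118 to 139 in the SB28 libraries, and its log2 fold changes of 0.14 (SE 0.18) and 0.30 (SE 0.20) did not pass, although the second did without astrocyte replicate 1 (adjusted p = 0.0425) and both did with the GC trend removed (0.0105 and 0.00662).

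Exons of 33 members overlap exons of another gene in the count table, 28 of them on the opposite strand and 8 on the same. Of the 45 members without such an overlap, 14 (31.1%) were higher in mKate2- cells, beside 29.3% of all genes, and 19 (42.2%) in mKate2+ cells, beside 28.0%, with median log2 fold changes of 0.26 and 0.65. Past a log2 fold change of 1 there remained 2 in mKate2- cells (Mrps10 and Mrps22) and 4 in mKate2+ cells. Among the overlapping members, Mrps25 shares 69.8% of its exonic length with Nr2c2 and Mrps34 shares 63.4% with Mapk8ip3, and a pair of members, Mrpl46 and Mrps11, overlap each other (log2 fold change 0.36 and 0.01 in mKate2- cells). The 5 processed pseudogenes with matching names had at most 20 counts in any library.

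The rest of the machinery of mitochondrial translation was described from lists of its other parts, whose counts stand beside 29.3% of all genes higher and 33.8% lower in mKate2- cells, and 28.0% and 32.1% in mKate2+ cells. Of 5 ribosomal proteins with other names, 3 were higher in mKate2- and 4 in mKate2+ cells than in astrocytes, and none lower, with median log2 fold changes of 0.46 and 0.82. Ptcd3, an RNA-binding protein of the small subunit, was at 42.6, 52.5 and 50.4 CPM in astrocytes and 101, 95.8 and 117 CPM in mKate2- cells (log2 fold change 1.13, SE 0.12, adjusted p = 0.000134, edgeR). Gadd45gip1, of the large subunit, rose by 1.04 (adjusted p = 0.00172) and Dap3, the GTP-binding protein of the small subunit, by 0.46 (adjusted p = 0.0338). Chchd1 (0.43, adjusted p = 0.087) and Aurkaip1 (0.12, adjusted p = 0.431) did not pass in mKate2- cells, and Chchd1 passed in mKate2+ cells (0.82, adjusted p = 0.0339). Chchd1, whose value is also the list median there, was at 31.45, 53.55 and 30.43 CPM in mKate2+ cells. Its log2 fold change over mKate2- cells was 0.39, and 0.01 without mKate2+ replicate 2.

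Of 12 translation factors 6 were higher and none lower in each SB28 group, beside the same shares of all genes (29.3% and 28.0% higher, 33.8% and 32.1% lower), which hold for the lists that follow (median log2 fold change 0.43 in mKate2- and 0.55 in mKate2+ cells). Gfm1, the elongation factor that moves the ribosome along the mRNA, was at 57.7, 54.9 and 59.1 CPM in astrocytes and 111, 118 and 131 CPM in mKate2- cells (log2 fold change 1.08, SE 0.10, adjusted p = 9.04e-05). Taco1, an activator of cytochrome c oxidase subunit I synthesis, rose by 1.04 and Gfm2, which recycles ribosomes, by 0.81 (adjusted p = 0.000179 and 0.000487). Of 17 aminoacyl-tRNA synthetases 8 were higher and Fars2 lower (-0.64, adjusted p = 0.0385) in mKate2- cells, with Tars2, Yars2 and Rars2 rising by 1.09, 1.04 and 0.93, and 8 were higher and none lower in mKate2+ cells. Lars2 of that list ranged from 337 to 3876 CPM over the libraries without regard to group. Of 25 assembly and rRNA modification factors 10 were higher in each SB28 group, among them the GTPase Noa1 (1.05 in mKate2- cells) and the rRNA methyltransferase Mrm3 (1.30), while Mettl17 (-0.60) and Ngrn (-0.36) were lower in mKate2- cells and Mettl17 alone in mKate2+ cells. In mKate2+ against mKate2- cells no gene of these lists passed.

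The mRNAs that these ribosomes translate ran the other way. Of the 13 mRNAs of the mitochondrial genome 12 could be tested, and all 12 were lower in mKate2- cells than in astrocytes, with a median log2 fold change of -1.39, and 5 were lower in mKate2+ cells, with a median of -1.17. Their share of all counts was 1.76%, 2.91% and 3.13% in astrocytes, 0.998%, 0.839% and 1.23% in mKate2- cells and 1.37%, 0.552% and 1.51% in mKate2+ cells. All SB28 libraries lay below all astrocyte libraries. mt-Nd6, a subunit of complex I, was at 385, 511 and 581 CPM in the astrocytes, 123, 109 and 155 in the mKate2- replicates and 134, 82.9 and 167 in the mKate2+ replicates (log2 fold change -1.91, SE 0.18, adjusted p = 9.22e-05 in mKate2- cells). Several of these mRNAs were barely counted, with mt-Co2, mt-Co3, mt-Atp6, mt-Nd3 and mt-Nd4l at mean levels of 1.24 to 2.94 CPM in astrocytes beside mt-Co1 at 14400 CPM, so their fold changes rest on few counts. All of them are among the 12 called lower in mKate2- cells. The shares of counts given above hold almost nothing of these mRNAs and so do not cover the whole mitochondrial genome. Why so few of their reads were counted was not tested. The rRNAs of the mitochondrial ribosome were not analysed here.

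**Figure D5:**
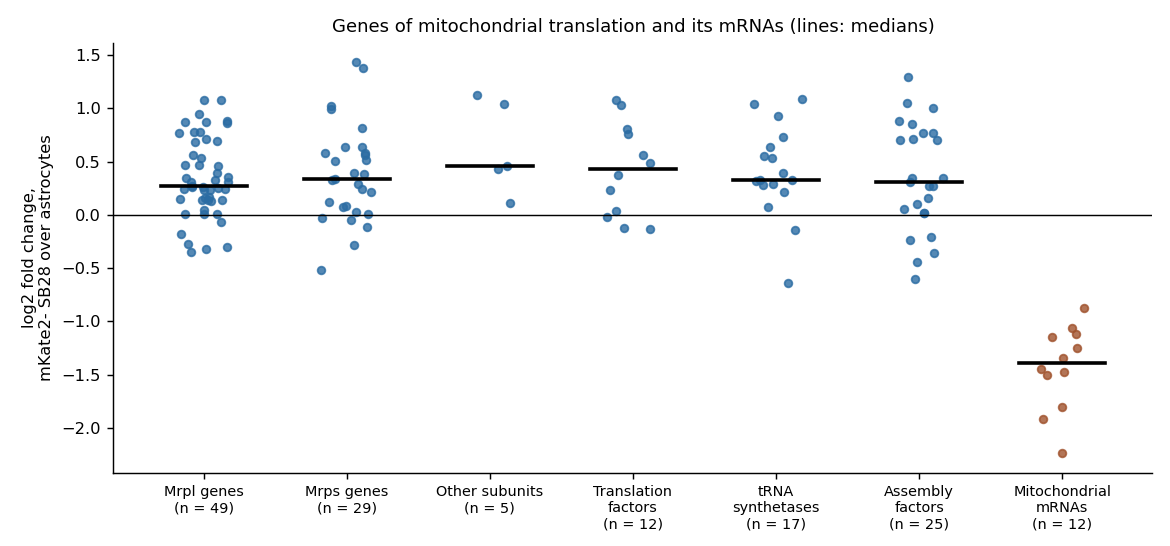
log2 fold change of mKate2- SB28 cells over astrocytes (y axis) for each gene of 7 groups (x axis, with the number of genes tested), where lines mark the medians. The 6 groups encoded in the nucleus have medians between 0.28 and 0.46, and the 12 mRNAs of the mitochondrial genome all lie below 0 with a median of -1.39.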

How the data were processed

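The deposited values are counts of reads per gene that the authors made by trimming (Trimmomatic 0.36), mapping to GRCm38 (STAR 2.5.2b) and counting uniquely assigned reads (featureCounts, Subread 1.5.2). They carry no normalization, and the annotation release and strand setting are not given in the sources used here. Gene names, positions and exonic lengths came from GENCODE M21, in which 259 gene IDs have no name. The members, gene lists and rules were chosen with earlier results of these data known.

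Each comparison used its 6 libraries, genes above 1 CPM in at least 2 of them, TMM normalization and the quasi-likelihood test of edgeR 4.0.16 (R 4.3.3), fitted to all genes with Benjamini-Hochberg adjustment over all of them, and calls were made at an adjusted p below 0.05. DESeq2 1.42.0, other normalizations and filters, all 9 libraries in a single fit, a replicate block, removal of length and GC trends and leaving out each library were the alternatives, and leaving out Mrps6 or members with overlapping genes was added after seeing the data. The fit was tested on simulated data. Sums over members carry no test, and with 3 libraries against 3 an exact two-sided permutation test cannot go below p = 0.1.

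Genes named are those with the smallest adjusted p (6 per direction and astrocyte comparison) and those past a log2 fold change of 1, the 3 per direction with the smallest unadjusted p between the SB28 groups, the 3 highest and the lowest per subunit in level, 12 members with roles of their own, up to 3 genes per further list and comparison, and all 5 ribosomal proteins with other names. Promoters were shown for Mrps22, Mrps10 and Mrps6. Members named for sharing exons with other genes, and Lars2, Mettl17, Ngrn, mt-Co1 and the mitochondrial mRNAs named for few counts, were named after their values were seen.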

Additional observations from a re-analysis of the deposited data

How the results depend on the processing

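The 35 members named by the rules above had 1680 values under the alternatives, and members named outside those rules were not counted. Of these values 1604 kept their side of the threshold, 33 came to pass it and 43 no longer passed it. No called value changed sign, whereas 46 that passed neither way did, 30 of them between the SB28 groups and 12 of those without mKate2+ replicate 2. Of the 28 members higher in mKate2- cells than in astrocytes 21 were called under every alternative, and of the 36 in mKate2+ cells 23 were. The share of all genes called changes with the setting. Counts of members given below without such a share therefore cannot be read as a result about the members.

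In mKate2- cells against astrocytes, members past a log2 fold change of 1 numbered 2 in place of 5 with upper-quartile normalization, and 2 to 8 with single libraries left out. The count of lower members, 1, became 2 with upper-quartile normalization, with at least 10 counts in every library and with the length trend removed, 0 with the GC trend removed, and 0 to 2 with single libraries left out. In mKate2+ cells it rose from 0 to 1 with the length trend removed and was 0 to 1 with single libraries left out, where 5 to 16 members lay past 1. Among members without an overlapping gene, chosen after seeing the data, 14 were higher, 0 lower and 2 past 1 in mKate2- cells, 19 were higher and 4 past 1 in mKate2+ cells, and 0 had an unadjusted p below 0.05 between the SB28 groups.

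Between mKate2+ and mKate2- cells the count of members higher at an unadjusted p below 0.05, 1, was 5 with DESeq2 (beside 1.42% of all genes), 2 with upper-quartile normalization, 2 with RLE normalization, 27 with no filter on low counts (3.23%), 2 with at least 10 counts in every library, 0 with a fit to all 9 libraries, 4 with the length trend removed (0.81%), 0 with the GC trend removed and 0 to 18 with single libraries left out (0.22% to 4.44%), where the settings given without a share had 0.699% to 0.884% of all genes. The cause was not tested. With the replicate block it was 0, and the block called 28 members higher in mKate2- and 39 in mKate2+ cells than in astrocytes. The correlations of the deviations of libraries with the same number ran from -0.147 to 0.251, and whether a number marks a shared co-culture is not given in the sources used here.

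On the TPM-like scale the summed levels averaged 3982, 4838 and 5175 in astrocytes, mKate2- and mKate2+ cells and the large to small ratio 1.45, 1.74 and 1.75. As CPM, the ratio averaged 1.70, 1.84 and 1.86 with subunits assigned by structure. With subunits taken from the symbol and without Mrps6, the CPM ratio averaged 2.17, 1.99 and 2.02, which turned its order. Depth was lowest for Mrpl53, at 20 to 82 counts per library.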
